A study of Mus musculus with 122 samples.

Results

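CTCFL binding after RNase was measured in 4 FLAG ChIP-seq libraries, 2 mock-treated and 2 RNase-treated, out of 122 samples in the series. They were chosen by their labels. The peak lists held 8918 peaks for mock replicate 1, 14347 for mock replicate 2, 9204 for RNase replicate 1 and 2526 for RNase replicate 2, after overlapping entries of a list were merged on chromosomes 1 to 19 and X. The 2526 peaks with the highest −log10 q were therefore compared in every list, and together they formed 5037 regions.

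All 4 libraries came from 1 mouse embryonic stem cell (mESC) line, derived from E14Tg2a (129/Ola, XY). Its endogenous CTCF carried an auxin-inducible degron (AID) with eGFP, the TIR1 ligase was at Rosa26, and a doxycycline-inducible FLAG-CTCFL-mRuby2 transgene was at Tigre. In every library, ID meant that IAA had been added to degrade CTCF and Dox to express the transgene, for 48 h by the labels, so no group here had the endogenous CTCF level or lacked CTCFL. The mock libraries received DMSO by the labels. The labels place the RNase treatment on chromatin before ChIP, whereas the study's methods describe RNase A on permeabilised cells before crosslinking. By the methods individual clones were selected and those used were homozygous, how many stand behind these libraries is not given in the sources used here, and nothing in the labels says that the 2 replicates were separate cultures, so the p-values below measure only the spread between these libraries. The comparison asked whether CTCFL needs RNA to stay on DNA.

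CTCF is a multi-zinc-finger protein that binds a GC-rich motif at insulators and stops loop extrusion by cohesin. CTCFL (BORIS) is its germline paralog, with similar zinc fingers and unrelated ends, and is normally made in male germ cells before meiosis, where it binds many promoters. RNA has been reported to bind to zinc fingers of CTCF, and digestion with RNase is a common test of whether a chromatin protein is held in place by RNA.

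Stem cell genes were expressed, several of them at a lower level in ID than in untreated cells. In RNA-seq of the same line, without RNase and at 24 h for the treated conditions by the labels, Pou5f1 lay between 12975 and 18080 normalized counts over 11 libraries and Nanog between 18075 and 37372. By limma at an adjusted p under 0.01 and a log2 change above 1, 6 of 15 pluripotency genes were lower in ID and none higher. Over all 16840 genes tested, 10.7% were lower and 8.91% higher. Among the 6 were Esrrb (16658 in untreated cells and 6249 in ID on average), Sox2 (9842 and 4027) and Prdm14 (1385 and 257). The study's methods describe culture without feeder cells. RNA of genes used as fibroblast markers was not absent, with Col1a1 between 228 and 1000, Col1a2 between 2.00 and 40.8 and Thy1 between 464 and 1138. Which cells it came from was not tested, nor any part of them in the peaks. The Ctcfl transgene was on, at 5514 ± 83.0 normalized counts in ID (SD, n = 2) against 208 ± 16.5 in untreated cells (SD, n = 3).

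The lists did not reach equally deep, and this has to be read before the results. The lowest −log10 q taken was 8.19 in mock 1, 12.6 in mock 2, 11.2 in RNase 1 and 2.02 in RNase 2, whose whole list was used. The next peak left out lay at 8.19, 12.6 and 11.2 in the first 3 lists, so the limit fell among peaks of the same strength. Mock 1 stood apart in what its top peaks were. Of its top peaks, 79.2% lay at CTCFL sites shared by both 24 h CTCFL ID replicates, against 94.8% for mock 2, 99.7% for RNase 1 and 92.3% for RNase 2. Sequence told the same peaks apart, and the words used are shown first.

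Most kept sites carried the core of the motif of the CTCF family, and strong examples are shown here. Its core was searched as AGNNGGC, and in a longer form as AGNNGGCGC, on both strands of the 201 bases around each summit; the first is contained in the second. In these sites, which had a peak in all 4 top lists, the longer word is in capitals (GRCm38, RefSeq sequence, 5′ to 3′ on the strand given):
Kept distal site 6930 bp from C330018A13Rik, chr5:116116634-116116714, + strand: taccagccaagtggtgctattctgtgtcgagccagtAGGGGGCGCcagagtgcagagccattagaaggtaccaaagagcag
Kept distal site 17874 bp from Enah, chr1:181888925-181889005, + strand: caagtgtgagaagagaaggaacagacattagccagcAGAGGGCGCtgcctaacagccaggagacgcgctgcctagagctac
Kept site at the Rapgef1 promoter, chr2:29619608-29619688, + strand: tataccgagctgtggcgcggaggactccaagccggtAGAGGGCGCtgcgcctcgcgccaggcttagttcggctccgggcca
Kept distal site 15944 bp from Epm2aip1, chr9:111289981-111290061, - strand: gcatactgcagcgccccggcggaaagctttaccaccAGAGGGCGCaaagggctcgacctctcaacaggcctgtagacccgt
Strong lost distal sites, with a peak in both mock lists and in neither RNase list, were instead simple repeats of CA and CATA units. The word ACACATAC, in capitals here, was chosen as their mark after these sequences were seen:
Lost site 5988 bp from a Ston2 start, in an intron, chr12:91719902-91719982, + strand: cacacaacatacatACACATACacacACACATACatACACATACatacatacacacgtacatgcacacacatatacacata
Lost site 48924 bp from Gm22556, in an intron, chr8:115003929-115004009, - strand: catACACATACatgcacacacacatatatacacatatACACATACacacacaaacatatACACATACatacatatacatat
Lost site 30907 bp from Gm37240, in an intron, chr3:85856396-85856476, - strand: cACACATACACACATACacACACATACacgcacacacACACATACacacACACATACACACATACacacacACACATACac
Some lost sites carried the motif, and so did gained sites, which had a peak in both RNase lists and in neither mock list. AGNNGGCGC is in capitals:
Lost intergenic site 15815 bp from Psmd7, chr8:107572656-107572736, - strand: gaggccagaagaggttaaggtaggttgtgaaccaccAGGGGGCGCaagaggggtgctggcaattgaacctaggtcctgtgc
Lost intergenic site 30285 bp from Mcph1, chr8:18564804-18564884, - strand: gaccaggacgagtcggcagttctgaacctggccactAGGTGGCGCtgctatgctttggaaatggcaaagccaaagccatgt
Gained site at the Utp3 promoter, chr5:88554143-88554223, - strand: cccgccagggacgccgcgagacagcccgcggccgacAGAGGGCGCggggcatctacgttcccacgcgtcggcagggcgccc
Gained site at the Mrpl17 promoter, chr7:105811219-105811299, - strand: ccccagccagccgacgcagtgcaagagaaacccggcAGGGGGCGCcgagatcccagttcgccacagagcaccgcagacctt

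The sequence words were unevenly spread over the classes. The core AGNNGGC was in 91.6% of 891 kept sites (816), 20.4% of 230 lost sites (47) and 80.8% of 286 gained sites (231). It is a common word, found in 36.6% of windows of the same length 2 kb away and in windows of that length at 48.9% of 32851 promoters. The longer AGNNGGCGC was rare elsewhere, in 0.814% of windows 2 kb away and 5.65% of promoters, and was in 61.2% of kept, 10.9% of lost and 43.7% of gained sites. The repeat word ACACATAC showed the opposite order. It was in 76.1% of lost sites (175), 14% of sites kept in 1 RNase list, 1.91% of kept sites (17) and 1.399% of gained sites (4), against 2.68% of windows 2 kb away and 0.676% of promoters. Lost sites with the repeat word and no core had a median of 82.1% A and C on 1 strand, against 53.2% at kept sites, and their windows were soft-masked as repeats over 98.8% of bases on average, against 8.22% at kept sites. Kept and lost are defined by the same lists that gave the summits, so these shares are descriptions.

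**Figure D1:**
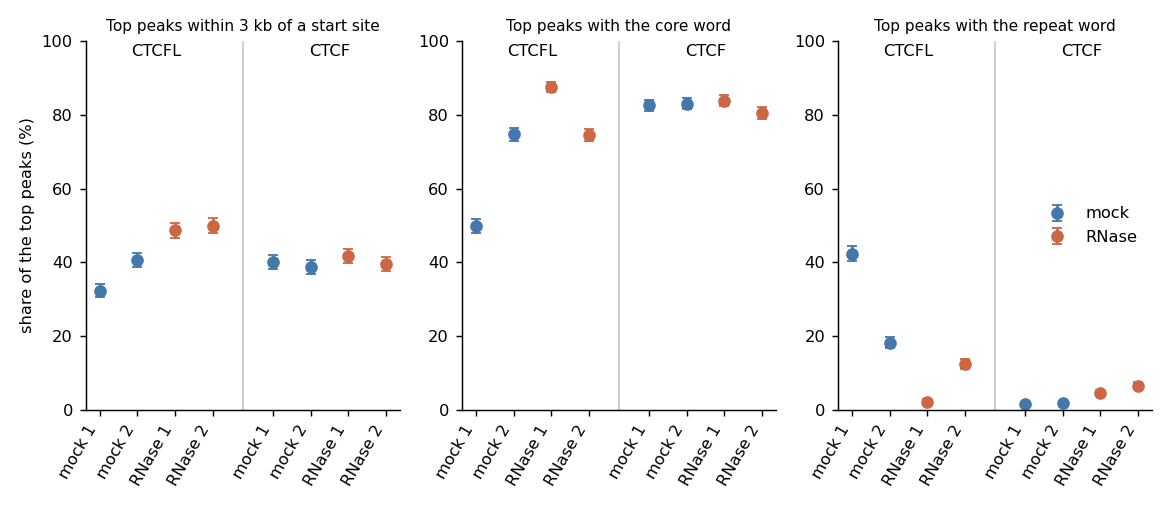
Share of the 2526 top peaks of each library (y axis, %) that lay within 3 kb of a start site (left), held the core word (middle) or held the repeat word (right), for CTCFL and CTCF, with mock libraries in blue and RNase libraries in orange. Bars are exact 95% binomial intervals; the repeat word was in 42.4% and 18.1% of peaks in the CTCFL mock libraries and 2.22% and 12.4% in the RNase libraries, and was higher in both CTCF RNase libraries than in the CTCF mock libraries.

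RNase libraries held fewer repeat peaks and more promoter peaks at equal numbers. The repeat word was in 42.4% of the top peaks of mock 1, 18.1% of mock 2, 2.22% of RNase 1 and 12.4% of RNase 2, a mean of 30.2% ± 17.1 for mock and 7.28% ± 7.17 for RNase (SD, n = 2 each). The 2 groups did not overlap, but the exact permutation test over the 4 libraries gave p = 0.333 (two-sided), the smallest that 2 against 2 allows. RNase 1 was lower than RNase 2, whose list went down to weaker peaks. The groups were also apart where every list was read down to a −log10 q of 10, with the repeat word in 33.9% of 1492 peaks of mock 1, 26.0% of 3974 of mock 2, 3.22% of 2985 of RNase 1 and 1.57% of 700 of RNase 2. Over the whole lists the shares were 56.7%, 44.6%, 22.4% and 12.4%. In the CTCFL ID libraries without any mock or RNase step, at 24 h, 5.00% and 5.31% of peaks down to that limit held it.

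The share of top peaks within 3 kb of a start site was 32.3% in mock 1, 40.5% in mock 2, 48.7% in RNase 1 and 50.0% in RNase 2. Both RNase libraries lay above both mock libraries, by 12.9 percentage points on average, with p = 0.333 by the exact permutation test. The core word was in 49.8%, 74.7%, 87.6% and 74.6% of the same peaks, so here mock 2 lay just above RNase 2 and the groups overlapped (exact permutation p = 0.667). Leaving out peaks with the repeat word and taking 2214 from each list brought the promoter shares to 42.3% and 45.8% in mock and to 50.0% and 54.8% in RNase, a difference of 8.36 percentage points.

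The lists of the 2 treatments overlapped less on average than replicates did, by less than the spread between pairs. Mock 1 and mock 2 shared 54.3% of their top peaks and RNase 1 and RNase 2 shared 63.9%. Across treatments, mock 1 shared 47.3% with RNase 1 and 45.4% with RNase 2, while mock 2 shared 65.6% with RNase 1 and 56.8% with RNase 2. The highest of the 6 pairs was therefore between a mock and an RNase library. The mean of the 4 mock-RNase pairs was 53.8% ± 9.33 (SD) against 59.1% within treatments (exact permutation p = 0.333, two-sided). Without repeat-word peaks all 6 pairs rose, to between 58.5% and 71.5%, and the mean across treatments was 64.2%.

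Of 1371 mock sites, with a peak in both mock lists, 891 were kept in both RNase lists. This was 65.0% (exact 95% interval 62.4 to 67.5), with 250 more (18.2%) kept in 1 RNase list and 230 (16.8%, 14.8 to 18.9) lost from both. Intervals here cover counting of sites only. In the other direction, 1612 sites were in both RNase lists, and 286 of them (17.7%) were gained. With mock 2 alone 49.6% of 2526 sites were kept and 27.3% lost, and with mock 1 alone 38.2% were kept and 45.4% lost. With RNase 1 alone 77.8% of the mock sites were kept, and with RNase 2 alone 70.5%, where a site needs only 1 list.

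**Figure D2:**
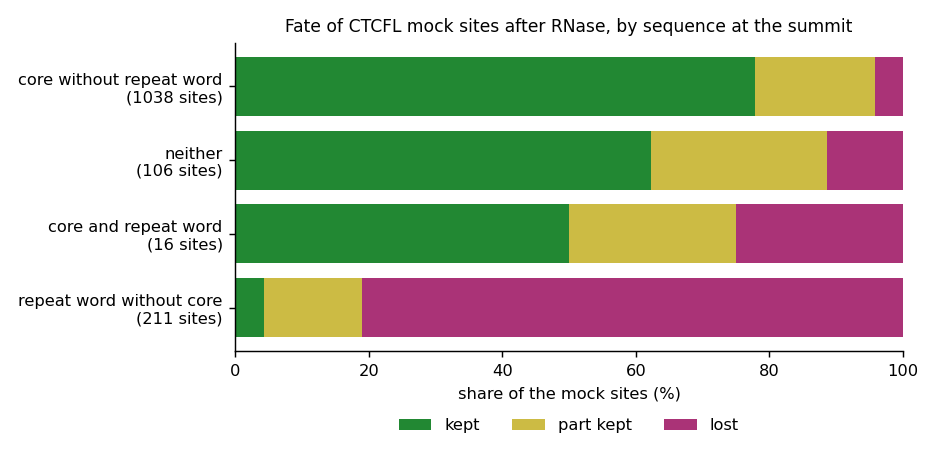
Share of mock sites (x axis, %) that were kept in both RNase lists, part kept in 1 or lost from both, by the words within 100 bases of the summit, with the number of sites beside each bar. Of 1038 sites with the core alone, 77.8% were kept and 4.14% lost, and of 211 sites with the repeat word alone, 4.27% were kept and 81.04% lost.

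What a mock site was made of went with its fate. Of 1038 sites with the core and no repeat word, 808 (77.8%, 75.2 to 80.3) were kept, 187 (18.02%) part kept and 43 (4.14%, 3.01 to 5.54) lost. Of 211 sites with the repeat word and no core, 9 (4.27%) were kept, 31 part kept and 171 (81.04%, 75.1 to 86.1) lost. The 106 sites with neither word were kept in 66 cases, and the 16 with both in 8. With each library left out in turn, the lost share of repeat sites was 83.99% without mock 1, 89.5% without mock 2, 83.9% without RNase 1 and 92.9% without RNase 2. The lost share of core sites was more than 1.5 times higher in each of these, at 14.5%, 8.69%, 18.7% and 7.62%, and below that of repeat sites each time. The repeat word was chosen after lost sites of these same lists were seen, and every setting reused libraries that had supplied it. The gap is therefore a description and no independent evidence.

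Lost did not mean gone for motif sites. Each of the 43 lost sites with the core still had a peak in the whole list of RNase 1, at a median −log10 q of 9.41 below the limit of 11.2, and none was in RNase 2, whose list is short. Their medians in mock were 9.60 and 16.2, so they were among the weaker mock sites. Of the 171 lost repeat sites, 136 had a lower-ranked RNase 1 peak, at a median −log10 q of 6.17 against 11.2 in mock 1 and 14.7 in mock 2. Gained sites were mostly present in mock too. Of the 286, 122 had a weaker peak in both whole mock lists, 152 in mock 2 only, 1 in mock 1 only and 11 in neither.

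**Figure D3:**
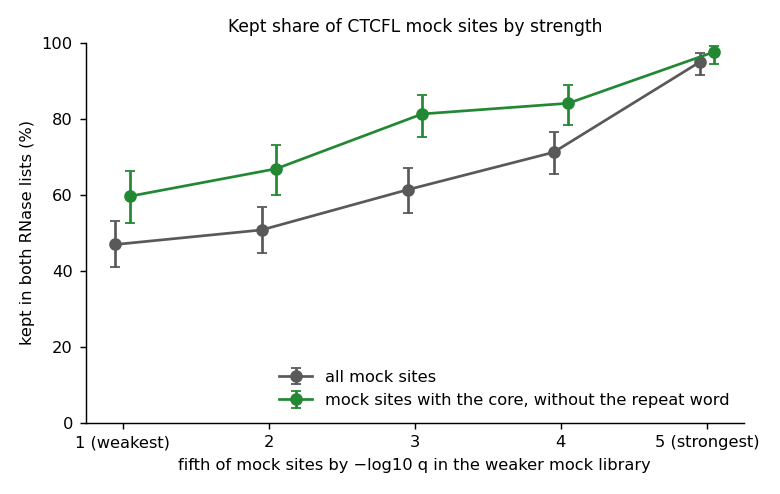
Share of mock sites kept in both RNase lists (y axis, %) in 5 groups of equal size by −log10 q in the weaker mock library (x axis, weakest to strongest), for all mock sites and for those with the core and no repeat word. Bars are exact 95% intervals. The kept share went from 46.9% to 94.9% for all sites and from 59.6% to 97.6% for core sites. Groups and lists rest on the same −log10 q, so a rise can come from the cut alone.

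Strong sites were kept. When mock sites were put in 5 groups by −log10 q in their weaker mock library, the kept share was 46.9%, 50.7%, 61.3%, 71.2% and 94.9% from the weakest to the strongest. Among core sites it was 59.6%, 66.8%, 81.3%, 84.1% and 97.6%. The same −log10 q ranked and cut the lists, and the weakest group of all sites began at 8.19, the limit of mock 1. A rise with strength can therefore come from the cut alone, and how far it did was not tested. The lost share of core sites went from 10.1% in the weakest group to 0 of 207 in the strongest, which allows a share of up to 1.45% if 3 counts are taken as the limit and 1.77% by the exact 95% interval. In the 24 h CTCFL ID libraries the median −log10 q in replicate 1 was 74.0 at kept, 57.4 at part kept, 54.3 at gained and 10.3 at lost sites. The lost sites were of unlike kinds, with a median of 54.3 at the 43 with the core and no repeat word. It was 8.45 at the 171 with the repeat word and no core. At kept core sites the summits of any 2 of the 4 libraries lay a median of 19 to 24 bp apart.

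Kept sites were at promoters more often than lost ones. With promoters taken as 3 kb to each side of any annotated start site, 50.4% of kept sites (47.1 to 53.7), 35.6% of part kept, 21.7% of lost (16.6 to 27.6) and 62.2% of gained sites (56.3 to 67.9) lay at one. Within 1 kb the shares were 35.5%, 18%, 5.65% and 51.7%. Read the other way, 76.4% of 588 promoter mock sites and 56.4% of 783 distal ones were kept. Among sites with the core alone, 82.2% of 501 promoter sites and 73.7% of 537 distal sites were kept, and the promoter share was 50.99% in kept and 44.2% in lost core sites. Kept sites lay in introns in 36.6% and exons in 15.8%, and lost sites in 49.1% and 3.91%. Gained sites were nearest to starts, with a median distance of 860 bp against 2941 bp for kept and 12043 bp for lost sites.

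Of the 11 CTCFL target genes listed from the study, 5 had a promoter site kept after RNase, 2 had weaker peaks that were not in RNase 2, and 4 had no peak. At Stra8, which is needed for entry into meiosis (chr6:34921737-34922962, intron), the −log10 q was 50.5 in mock 1, 66.2 in mock 2, 51.7 in RNase 1 and 39.5 in RNase 2. The site held neither word. At the promoter of Ctcfl itself (chr2:173119346-173120022) it was 36.4, 48.4, 46.8 and 43.9 in the same order. The ranges of mock and RNase overlapped at both genes.

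Prss50, a testis protease gene, had 18.9, 40.7, 30.7 and 12.9, and Gal3st1, which makes sulfated glycolipids of testis and myelin, had 11.2, 15.97, 22.2 and 7.02. Rapgef1, an exchange factor for RAP1, had 36.1, 48.8, 44.4 and 35.002. RNase 2 was the lowest of the 4 libraries at Stra8, Prss50, Gal3st1 and Rapgef1. The 5 kept were 45.5% of the 11 targets, against 1.83% of 21755 protein-coding genes, of which 1640 had a promoter site in a top list and 398 a kept one. The list was drawn up by the study on this line, so it is no independent evidence. Adamts2 and Adamts15 had peaks only below the limit, at 6.47, 7.63 and 2.89 and at 6.78, 7.19 and 7.54 in mock 1, mock 2 and RNase 1, and none in RNase 2, and no peak lay at Dll1, Mageb4, Magee1 or Magef1 in any of the 4.

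**Figure D4:**
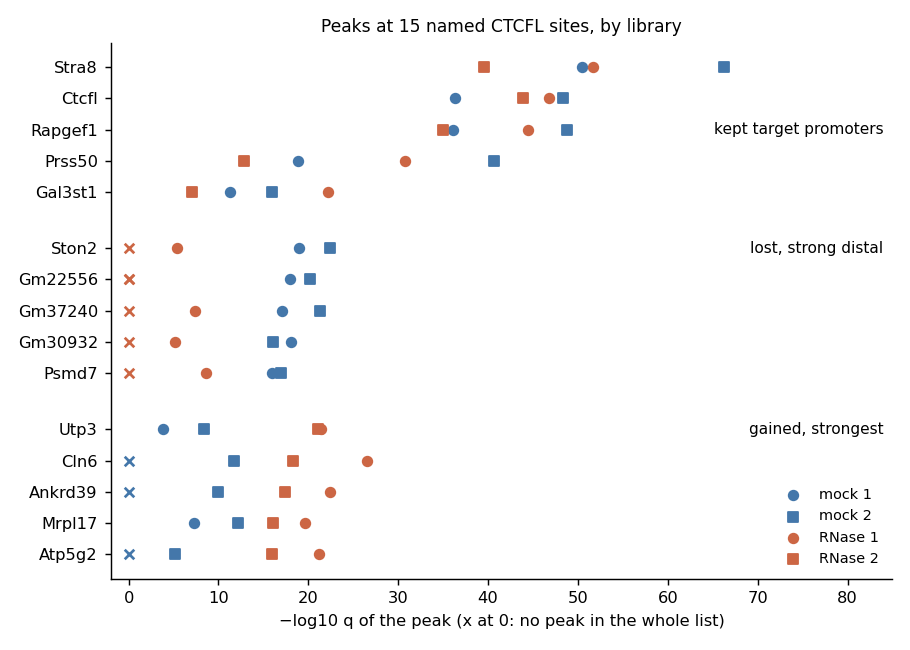
The −log10 q of the peak in each of the 4 whole lists (x axis) at the 5 kept CTCFL target promoters, 5 of the strongest lost distal sites and the 5 strongest gained sites (y axis, nearest gene); circles are replicate 1, squares replicate 2, and a cross at 0 means no peak. Stra8 lay between 39.5 and 66.2 in all 4 lists, while Ston2 had 18.9 and 22.4 in mock, 5.33 in RNase 1 and no peak in RNase 2.

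In other gene groups, the share with a promoter site in a top list was 30% for cohesin and partners and 21.4% for meiosis and germline. It was 14.7% for ribosomal proteins, 9.09% for imprinted genes, 1.05% for histones and 0 for pluripotency genes. Of all protein-coding genes 7.54% had such a site and 1.83% a kept one, a share that leaves out noncoding RNA genes. Several groups rest on 1 to 3 genes with a site, and differences between groups were not tested. Of 14 meiosis and germline genes, Stra8, already counted among the targets, and Tex19.1, which restrains transposons in the germline, were kept. Tex19.1 had 8.63, 16.8, 11.7 and 19.07. Rec8, the meiotic cohesin subunit, was in the top list of RNase 2 alone, at 2.95, with 9.20 in the whole list of RNase 1 and no mock peak. Of 10 genes of cohesin and its partners, Pds5b was kept with 17.0, 15.4, 31.99 and 21.9, Stag1 was in the top lists of mock 2 and both RNase libraries, and Smc3 was in that of RNase 1 alone (12.8, with 4.64 in the whole list of mock 2). None of the 15 pluripotency genes had a promoter site in any top list, although Sox2 had mock peaks at 5.74 and 5.603. Among 15 noncoding RNA genes only Meg3 had a site (20.9, 33.7, 28.4 and 12.3), and among 11 imprinted genes only Grb10 did (9.39, 18.7, 21.8 and 16.1). Of 102 ribosomal protein genes 15 had a site, of which 3 were kept, 1 was gained and 11 had other patterns, and of 95 histone genes 1 had a site.

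The strongest kept sites did not all carry the motif. The top promoter site, at Gm10800 on chromosome 2 (98666958 to 98667326), had a −log10 q of 93.0, 86.9, 83.7 and 84.96 but held neither word, was soft-masked over 100% of its window, and was as strong in the CTCF lists (85.2 and 82.4 in mock, 89.1 and 72.4 in RNase). The kept sites at Gm10801 and at a further place near Gm10800 lay beside it, and neither held a word. By contrast the Ctcfl promoter had 2.90 and no peak in the 2 CTCF mock lists and 29.9 and 6.28 in the 2 CTCF RNase lists, from a line whose transgene is CTCF. Other strong kept promoter sites, beside that at Stra8, were at Aida, which binds Axin (54.2, 66.9, 62.9 and 44.8), and Gdf15, a stress-induced cytokine (46.1, 67.3, 65.7 and 39.4). The 5 strongest kept distal sites were near Gm28502 (73.0, 61.7, 59.2 and 66.3), C330018A13Rik (53.6, 88.7, 83.1 and 61.3), the mitochondrial leucyl-tRNA synthetase gene Lars2 (44.5, 50.1, 60.8 and 53.5), Gm44436 (38.2, 48.7, 43.03 and 36.2) and Enah, an actin regulator (39.4, 58.6, 47.0 and 35.2). Those near Lars2 and Gm44436 held no core, nor did that at Aida. In CTCF mock 1, mock 2, RNase 1 and RNase 2, Gm44436 had 49.3, 48.4, 48.4 and 49.4. In the same order Aida had 47.1, 30.9, 68.0 and 34.7, and Lars2 had 19.2, 20.8, 41.6 and 27.7. Apart from the Ctcfl promoter, every kept site named in this paragraph had a peak in all 4 CTCF lists.

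The strongest lost sites were weaker. The first, 5988 bp from a start of the endocytic adaptor Ston2, had 18.9 in mock 1, 22.4 in mock 2, 5.33 in RNase 1 and no peak in RNase 2. Of the 10 strongest lost promoter sites, 9 held the repeat word, among them those at Emp1, Epb41l1, the kinase gene Nek5, the muscle calcium channel gene Ryr1 and the chemokine receptor gene Cxcr1. At Emp1 the values were 13.4 and 21.6 in mock, 7.30 in RNase 1 and none in RNase 2. Of the 10 strongest lost distal sites, 9 held it too. The other, an intergenic core site 15815 bp from the proteasome gene Psmd7, had 15.9 and 17.0 in mock, 8.60 in RNase 1 and none in RNase 2.

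Gained sites were mainly at promoters. The strongest was at Utp3, a factor of the small-subunit processome (chr5:88554032-88554356), with 3.79 in mock 1, 8.37 in mock 2, 21.4 in RNase 1 and 21.1 in RNase 2. Ankrd39 had no peak in mock 1, 9.99 in mock 2, 22.4 and 17.4. Mrpl17, of the mitochondrial ribosome, had 7.30, 12.1, 19.7 and 16.1, Atp5g2, a subunit of ATP synthase, had none, 5.12, 21.2 and 15.9, and Tada2b, an adaptor of SAGA, had none, 6.06, 15.3 and 18.3. In all of these both RNase values were above both mock values. They were chosen by their weaker RNase value among sites outside both mock top lists, whose limits were higher than that of RNase 2 at 2.02. Gained sites as a whole were not stronger in every RNase library. Over the 286, the median −log10 q was 9.36 in mock 2, where 274 had a peak, and 6.81 in RNase 2.

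**Figure D5:**
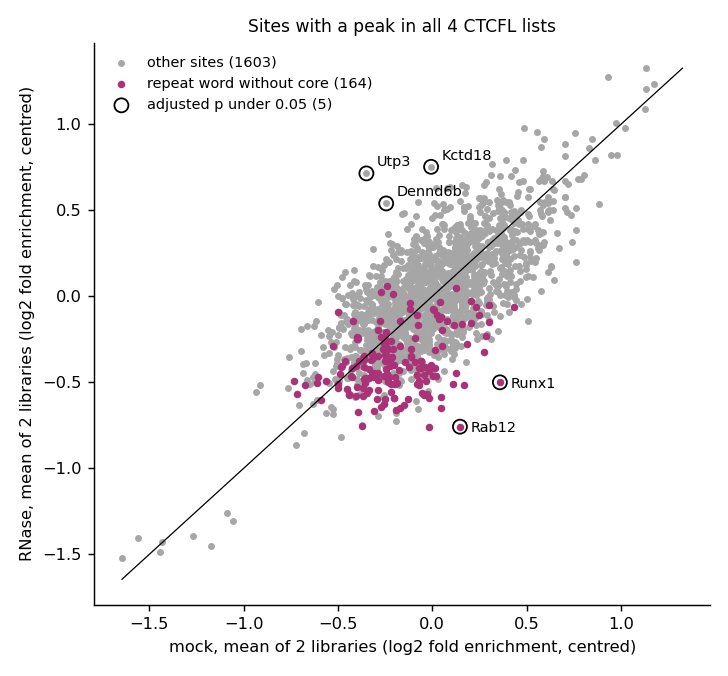
Mean log2 fold enrichment in the 2 RNase libraries (y axis) against the 2 mock libraries (x axis), each library centred on its median, at the 1767 sites with a peak in all 4 whole lists; sites with the repeat word and no core are purple and sites called at an adjusted p under 0.05 are circled. The 164 repeat sites had a median change of −0.18.

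Where a site had a peak in all 4 whole lists, its fold enrichment could be compared directly. A site missing from any list had no value, so every lost site was left out and the fit could not show such a loss. Centring also took out any change common to all sites. By limma on centred log2 fold enrichment with Benjamini-Hochberg adjustment, 5 of 1767 sites (0.283%) differed between RNase and mock, 3 higher and 2 lower. The 3 higher were promoter sites with the core. Utp3 had a fold enrichment of 3.91, 5.52, 9.43 and 10.6 in mock 1, mock 2, RNase 1 and RNase 2, a log2 change of 1.06 (SE 0.19, adjusted p = 2.00e-05 by limma). Dennd6b, which activates RAB proteins, changed by 0.78 (SE 0.19) and Kctd18 by 0.76 (SE 0.18), both with an adjusted p of 0.0184 by limma. The 2 lower were repeat sites with no core, 5125 bp from a start of the small GTPase gene Rab12 (5.88, 7.29, 3.08 and 4.19; log2 change −0.90) and 1551 bp from a start of the blood cell regulator Runx1 (6.67, 8.63, 4.58 and 4.03; log2 change −0.86). The median log2 change was 0.02 over 1418 core sites, −0.18 over 164 repeat sites, 0.04 at promoters and −0.04 at distal sites. Of the 164 repeat sites 22 were lower and 0 higher at an unadjusted p under 0.05, against 50 lower and 73 higher of the core sites. Without centring no site was called (38 at an unadjusted p under 0.05). Without mock 1 or without mock 2 none was called either (87 and 138 at an unadjusted p under 0.05), without RNase 1 there were 12 calls and without RNase 2 there was 1. The lone sample left in a group was assumed to vary like the others.

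CTCF, measured in the same experiment in a line with a FLAG-CTCF transgene, was compared at the same number of top peaks. Its lists were stronger, so the lowest −log10 q taken was 31.3 and 44.2 in mock and 20.4 and 9.28 in RNase. Of 1892 CTCF mock sites 59.8% (57.5 to 62.0) were kept and 16.2% lost, 5.21 percentage points fewer kept than for CTCFL. That difference was −12.0 with whole lists and −4.71 with all peaks down to a −log10 q of 5, so no order of the 2 proteins can be read from it. Among core sites 61.1% of 1535 were kept and 15.2% lost in CTCF, against 77.8% and 4.14% in CTCFL. For core sites the proteins were compared at this number of top peaks alone, where their lists ended at unlike −log10 q. No order can be read from these shares either. Only 8 CTCF mock sites held the repeat word without the core. Its share of the top peaks was 1.504% and 1.78% in CTCF mock and 4.39% and 6.41% in CTCF RNase, higher in both RNase libraries. Down to a −log10 q of 10 in every list, it was 6.54% and 6.66% in CTCF mock and 21.1% and 5.46% in CTCF RNase. There the groups overlapped. Over the whole lists both RNase shares were again higher, with 22.0% and 19.9% in CTCF mock and 33.2% and 23.1% in CTCF RNase.

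At the 171 lost repeat sites of CTCFL the CTCF lists mostly had a peak as well. It was present in 94.7% of them in each CTCF mock list, at a median −log10 q of 9.64 and 9.97, in 98.8% in CTCF RNase 1 at 13.3, and in 63.7% in CTCF RNase 2 at 6.89. RAD21, a cohesin subunit, was measured in the CTCFL line at 24 h without RNase. Its replicate 1 list in ID covered 79.5% of the lost repeat sites, 13.95% of lost core sites and 12.4% of kept core sites. In D, where CTCF was left in place, the same shares were 87.7%, 65.1% and 57.9%. What the repeat peaks in these lists share was not tested.

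The change at sites that both proteins bound was tested as an interaction. This fit too left out every site missing from any list. By limma, 22 of 1438 sites (1.53%) with a peak in all 8 lists differed between the proteins in their change with RNase, 5 with a higher and 17 with a lower change in CTCFL. Of the 17, 8 were repeat sites with no core. At the repeat site near Rab12 the fold enrichment in CTCF was 4.06 and 3.74 in mock and 4.80 and 4.29 in RNase, while it was 5.88 and 7.29 in mock and 3.08 and 4.19 in RNase in CTCFL (log2 difference −1.47, SE 0.29, adjusted p = 0.00495 by limma). At the Stra8 promoter the CTCFL folds were 8.69, 8.97, 7.50 and 8.23 and the CTCF folds 4.62, 3.604, 5.74 and 5.24 (log2 difference −0.98, adjusted p = 0.0497 by limma). In these folds, before centring, both RNase libraries were lower than both mock libraries in CTCFL and higher in CTCF. The difference there thus holds a rise in CTCF too. The median over 61 repeat sites was −0.67. Without centring the median of all sites moved from −0.03 to 0.36 and 8 sites were called, all higher in CTCFL; with the replicate block 7 were called. Without 1 CTCFL library the count was 3 without mock 1, 17 without mock 2, 0 without RNase 1 (230 at an unadjusted p under 0.05) and 1 without RNase 2.

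RNA of the genes with kept promoter sites of CTCFL was compared between ID and untreated cells at 24 h, without RNase. Of 548 such genes 398 passed the limit on low RNA values, and 88 (22.1%) were higher and 23 (5.78%) lower in ID by limma at an adjusted p under 0.01 and a log2 change above 1. Over all 16840 genes tested 8.91% were higher and 10.7% lower. Ctcfl rose by 4.73 on the log2 scale, in which transgene and endogenous reads cannot be told apart. Stra8 went from 3944 ± 67.3 (SD, n = 3) to 19586 ± 930 (SD, n = 2) normalized counts, a log2 change of 2.31 (adjusted p = 3.64e-16 by limma), and Prss50 from 90.8 ± 15.6 to 1321 ± 55.1, a change of 3.86. Rapgef1 did not pass (2901 ± 110 and 3214 ± 160). Of 59 genes with lost promoter sites 26 were tested, with 2 higher and 5 lower, and their median was 4.79 normalized counts in ID. At least 10 normalized counts were reached in ID by 45.5% of those listed, against 77.9% for genes with kept sites and 32.5% of all genes. Genes with gained sites had a median of 683, against 326 for genes with kept sites, and 32 of 188 tested were higher and 8 lower. IAA and Dox were both new in ID, and this comparison alone does not separate them; the libraries with IAA or Dox alone were not tested here. No RNA library used here had RNase.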

How the data were processed

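The members, gene lists, sequence words and tests were chosen with earlier results of these data known, and the core and repeat words after the sites were seen. FLAG M2 ChIPmentation reads were processed by the authors with Trim Galore 0.4.4, Bowtie2 and SAMtools 1.3 on GRCm38, per the submitters' processing notes. The deposited peak lists give, per replicate, MACS fold enrichment over background and −log10 q, as the authors' peak caller wrote them; the control used is not given in the sources used here, and read depth is unknown. The deposited RNA values are a signal, read counts that the authors divided by size factors, and 27 further sample columns were not used.

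Overlapping entries were merged and the top 2526 peaks by −log10 q taken per list; an overlap of 1 bp counted as shared. Starts came from the GRCm38 annotation. Shares have exact binomial intervals, which cover counting error only. Libraries were compared by exact permutation. Log2 fold enrichment, centred per library, and log2(RNA value + 1) were fitted with limma 3.58.1 in R 4.3.3, with edgeR 4.0.16 on recovered reads as an alternative for RNA; an RNA mean of at least 10 was required. Scripts were tested on simulated data. Named sites were the 10 strongest kept and lost sites at promoters and away from them, the 10 strongest gained sites, sites called by limma and members of the lists; the 2 lost core sites and further sequences shown were picked after their values were seen. Same-numbered libraries were not paired by the labels. The sequence of 1 further lost site is not reported here.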

Additional observations from a re-analysis of the deposited data

Results flagged for a closer look

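The share of top peaks with the repeat word moved in opposite ways in the 2 proteins. In CTCFL it fell by 23.0 percentage points from mock to RNase, from 42.4% and 18.1% to 2.22% and 12.4%. In CTCF it rose by 3.76 percentage points, from 1.504% and 1.78% to 4.39% and 6.41%. It drew attention because both CTCFL RNase libraries lay below both mock libraries while both CTCF RNase libraries lay above theirs. These shares are at equal numbers of peaks, and the CTCF mock lists were cut at a higher −log10 q than the CTCF RNase lists. Down to a −log10 q of 10 in every list, CTCF had 6.54% and 6.66% in mock and 21.1% and 5.46% in RNase. At that limit the CTCF groups overlapped, while the CTCFL groups stayed apart. Down to a −log10 q of 5 the CTCF shares were 17.9% and 16.9% in mock and 32.3% and 18.1% in RNase. Over the whole lists they were 22.0% and 19.9% in mock and 33.2% and 23.1% in RNase. Both RNase libraries were higher in these 2 settings. The difference between the proteins was not tested.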

How the results depend on the processing

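Of the mock sites, 65.0% were kept and 16.8% lost. The kept share was 61.8% with the top 1000 peaks, 24.8% with all peaks, 27.2% with all peaks down to a −log10 q of 5, 60.2% when ranked by fold enrichment and 71.7% without RNase 2 and with more peaks per list; the lost share was 13.4%, 35.4%, 36.2%, 20.1% and 28.3% in the same settings. Leaving out 1 library gave 38.2% to 77.8% kept and 22.2% to 45.4% lost. Without peaks holding the repeat word, an alternative chosen after seeing the data, 10.1% were lost, mock and RNase lists overlapped by 64.2%, the promoter share differed by 8.36 percentage points between RNase and mock and by 11.5 between kept and lost sites. The promoter difference was 17.8 with all peaks, and the kept-lost gap 20.9 to 34.8 without 1 library. The lost share without 1 library, also added after seeing the data, was 83.9% to 92.9% for repeat sites and 7.62% to 18.7% for core sites. The kept share of CTCFL minus CTCF was 10.4 with an overlap of 50%, 10.8 by fold enrichment, −12.0 with all peaks, −4.71 down to a −log10 q of 5, −0.39 without RNase 2 and with more peaks per list, and −10.1 without mock 1, −21.6 without mock 2 and −21.6 to 17.98 over all 4 libraries left out. In these last values CTCF kept all of its lists, so the sites of the 2 proteins were defined differently and no order can be read from them. The cause of the other changes was not tested.

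By limma, the 5 enrichment calls became 0 without centring (38 at an unadjusted p under 0.05), 3 without a trend, 3 above the median fold, 3 without repeat-word peaks and 0 to 12 without 1 library; the replicate block gave 4 and crossed numbers 5, where the replicate differences correlated at −0.11 over 1767 sites. The 22 interaction calls became 8 without centring, 5 with quantile normalization, 7 with the replicate block, 2 above the median fold and 0 to 17 without 1 library. The 88 higher and 23 lower RNA calls at kept promoters were in sum 103 to 109 without 1 library and 109 with the replicate block. Without read counts, a site missing from RNase 2, the shortest list, cannot be told from one below its depth.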
